A study of Mus musculus with 6 samples.

Results

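The integrated stress response and the unfolded protein response were followed through 42 genes, chosen by name and grouped into an ATF4 arm of 21 genes, an endoplasmic reticulum (ER) chaperone arm of 16 and a mitochondrial arm of 5 chaperones and proteases. They were taken from a table of 54532 genes, in which they filled 43 rows, because Ddit3 is listed under a second identifier of 105 bases that held 0 reads in every library and was not used. RNA sequencing was performed on mouse aortic smooth muscle cells that had received adenovirus with a control plasmid (Ad-Con, 3 libraries, genotype labelled WT) or with a plasmid for overexpression of pyruvate dehydrogenase kinase 4, a mitochondrial kinase that restrains the entry of pyruvate into the TCA cycle (Ad-PDK4, 3 libraries, genotype labelled as overexpression). According to the study, primary cells isolated from the abdominal aorta were used after passage in culture, and both groups were exposed to angiotensin II, which the labels leave out. Cells without that peptide, or without virus, were not analysed here. The study describes cloning of the PDK4 sequence into a pEnCMV vector with an HA tag, and how the adenovirus itself was built was not given in the sources used here. The study calls the libraries biological replicates, and nothing says whether they came from separate animals or cultures, so each p-value measures the spread between these libraries.

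The integrated stress response begins when a kinase (HRI, PKR, PERK or GCN2, encoded by Eif2ak1 to Eif2ak4) phosphorylates the initiation factor eIF2 alpha. General translation falls, while translation of the transcription factor ATF4 increases and turns on genes for amino acid supply, redox balance and, through CHOP, cell death. The unfolded protein response is set off by misfolded protein in the ER through PERK, IRE1 (Ern1) and ATF6, of which the last 2 raise ER chaperones and the machinery that extracts and degrades misfolded proteins. ATF4 is controlled mainly at translation and XBP1 by unconventional splicing of its mRNA, and neither step is visible in a level per gene. In arterial smooth muscle these pathways are known to be engaged by lipid, oxidant and mechanical stress.

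Some features of the libraries bear on every direction given. Pdk4 itself was lower under the overexpression label, at 9.5, 10.4 and 10.1 FPKM in Ad-Con and 7.67, 7.40 and 7.38 FPKM in Ad-PDK4 (log2 fold change -0.42, limma adjusted p = 0.0011), so higher and lower below refer to the label Ad-PDK4, and whether the deposited values count the insert is not known. All 10 interferon-induced genes of a check list were higher and at least 2-fold so, their summed FPKM running from 124 to 169 in Ad-Con and from 2124 to 2292 in Ad-PDK4. Of 9 smooth muscle markers, 3 passed the filter on low values, 1 of them lower at an adjusted p below 0.05 in limma and 2 not. Acta2 was at 76.9 to 78.7 FPKM in Ad-Con and 33.5 to 38.0 in Ad-PDK4. Smtn (8.2 to 8.4 and 8.1 to 8.9 FPKM) and Lmod1 (0.61 to 0.80 and 0.50 to 0.64 FPKM) overlapped. The other markers lay under the filter. Of these, Mylk (0.60 to 0.85 FPKM in Ad-Con and 0.10 to 0.14 in Ad-PDK4) was lower in every Ad-PDK4 library. So were Cnn1 (0.42 to 0.54 and 0.17 to 0.34 FPKM) and Des (0.15 to 0.24 and 0.04 to 0.06 FPKM). Tagln (0.17 to 0.55 and 0.11 to 0.44 FPKM) overlapped. The defining markers Myh11 and Myocd overlapped too and had at most 10 and 5 reads in any library. Fibroblast markers summed to 1430 to 1555 FPKM in Ad-Con and 738 to 805 in Ad-PDK4. Of the 7, 6 passed the filter, with 4 lower, 1 higher and 1 past no threshold. Col1a1 made most of the sum, at 1007 to 1086 and 404 to 492 FPKM. Dcn went the other way, at 83.3 to 99.2 and 143 to 181 FPKM, and Pdgfra overlapped between the groups. Macrophage markers summed to 15.0 to 17.9 and 5.91 to 7.44 FPKM, with Ptprc, Tyrobp, C1qa and C1qb at 0 in every library. The fall of this sum lay in Cd68 (12.9 to 16.3 and 3.10 to 4.85 FPKM). Csf1r and Lyz2, at low levels, were higher in every Ad-PDK4 library. Endothelial and lymphocyte markers summed to at most 1.18 and 0.265 FPKM. The part of these shifts in the changes of the stress genes was not tested, and in bulk libraries fewer cells of a type and less RNA per cell cannot be told apart.

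Promoter sequences are shown first, because several genes of the ER chaperone arm carried the known element of that pathway and their changes differed in size. RefSeq windows on GRCm38.p6, from 250 bases before to 50 after a gene's start, were given for 36 of the 42 genes. They were not given for Aldh1l2, Hyou1, Manf, Atf6, Ppp1r15b and Hspa9. Both strands were searched for the ER stress response element (ERSE, CCAAT, 9 bases of any kind and CCACG, bound by NF-Y with ATF6). This element was found in 5 of 13 windows of the ER chaperone arm, in 0 of 19 of the ATF4 arm and in 0 of 4 of the mitochondrial arm, against 37 of 27025 genes with a window (0.137%). In the stretches below, both parts of the element are in capitals, each read 5′ to 3′ on the strand of its gene.
Hspa5, chr2:34772025-34772043, + strand, 65 to 47 bases before the start, in an exon of another annotated transcript: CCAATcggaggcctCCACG
Creld2, chr15:88819470-88819588, + strand, element on the reverse strand: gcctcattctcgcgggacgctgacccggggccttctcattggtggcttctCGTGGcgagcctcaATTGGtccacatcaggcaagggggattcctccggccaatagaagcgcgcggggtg
Pdia6, chr12:17266441-17266544, + strand: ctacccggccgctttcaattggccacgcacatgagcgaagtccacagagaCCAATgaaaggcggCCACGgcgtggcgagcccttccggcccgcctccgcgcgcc
Hsp90b1, chr10:86705510-86705694, − strand, an element on each strand: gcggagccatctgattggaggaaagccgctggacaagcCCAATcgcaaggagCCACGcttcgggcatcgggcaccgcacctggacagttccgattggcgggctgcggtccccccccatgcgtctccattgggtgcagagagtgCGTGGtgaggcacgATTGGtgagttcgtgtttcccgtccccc
Dnajc3, chr14:118937777-118937895, + strand: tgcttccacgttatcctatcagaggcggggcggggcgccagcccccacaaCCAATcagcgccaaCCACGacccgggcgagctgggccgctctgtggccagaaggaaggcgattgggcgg

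A shorter form of the element (ERSE-II, ATTGG, 1 base of any kind and CCACG) was found among the 42 genes in Herpud1 alone, and in 12 of the 27025 genes (0.0444%). The C/EBP-ATF response element that ATF4 binds (CARE, TGATG, 1 base of any kind and AA) was found in the windows of Asns, Atf3, Chac1 and Trib3 of the ATF4 arm, in Trib3 after the start, and in Herpud1 of the ER chaperone arm, against 1219 genes (4.51%). The CAREs of Atf3 and Chac1 are shown because these genes were among the largest changes, and the ERSE-II of Herpud1 because that gene had the lowest log2 fold change of its arm. Capitals again mark the element, and the CAREs of Atf3 and Chac1 lie on the reverse strand. The CARE of Herpud1, 112 to 105 bases before the start, lies outside the stretch printed.
Herpud1, chr8:94386327-94386428, + strand: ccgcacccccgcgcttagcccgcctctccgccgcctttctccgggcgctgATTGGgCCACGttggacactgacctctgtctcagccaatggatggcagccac
Atf3, chr1:191183386-191183493, − strand: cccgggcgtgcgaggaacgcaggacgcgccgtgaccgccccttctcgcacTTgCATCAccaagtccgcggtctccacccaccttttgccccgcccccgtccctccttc
Chac1, chr2:119350999-119351106, + strand: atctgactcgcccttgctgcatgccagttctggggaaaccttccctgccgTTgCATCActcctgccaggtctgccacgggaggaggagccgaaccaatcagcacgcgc

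An interferon-type element (ISRE, GAAA, 2 bases of any kind and GAAA) was present in Eif2ak2, 19 to 28 bases after the start, and in Ppp1r15a, against 1079 genes (3.99%). The XBP1-type element (UPRE, TGACG followed directly by TGG) was in no window of the 42 genes and in 193 genes of all (0.714%). A match says only that these letters stand in the window. Only exact matches were sought, so a window without a match may hold a variant. The ERSE is a known element of the ER chaperone pathway, so its share in that arm is no result of these data.

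All 42 genes passed the filter of a mean of at least 0.5 FPKM and were tested among 13423 genes by limma on log2(FPKM + 0.1), a scale that slightly understates the change of low genes. They were well covered, with 46 (Atf3) to 13879 (Hspa9) reads per library and a mean from 2.45 (Aldh1l2) to 146 FPKM (Hspa9). The median coefficient of variation within a group was 4.53% in Ad-Con and 4.94% in Ad-PDK4. At an adjusted p below 0.05, 24 of the 42 were higher (57.1%, against 21.8% of all genes tested) and 5 were lower (11.9%, against 20.8%). The 13 others did not pass. A fold of at least 2 was reached by 5 genes upward (11.9%, against 3.95% of all genes) and by 0 downward (against 2.68%). The libraries of the groups did not overlap for 32 genes (76.2%, against 54.3% of all genes). The median log2 fold change was 0.26, where that of all genes tested was -0.003. These are descriptions of a list chosen with the results of these data known.

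**Figure D1:**
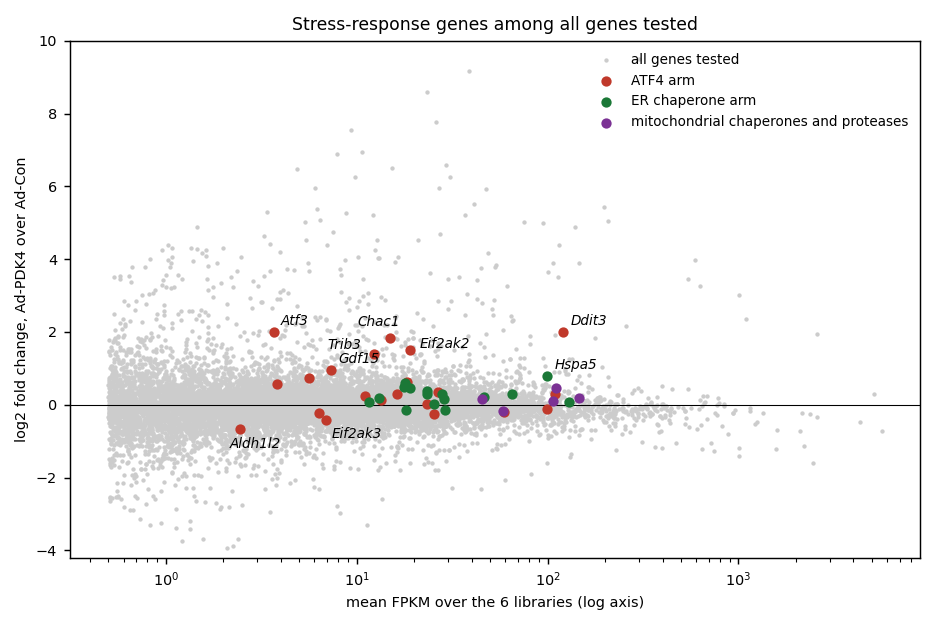
Log2 fold change of Ad-PDK4 over Ad-Con (vertical axis) against mean FPKM over the 6 libraries (horizontal log axis) for all 13423 genes tested (grey) and for the 42 stress-response genes, coloured by arm. Ddit3 at 1.99 combined a large change with a high level, and most ER and mitochondrial genes lay close to 0.

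In the ATF4 arm, 13 of 21 genes were higher (61.9%, against 21.8% of all genes tested). Lower were 5 (23.8%, near the 20.8% of all genes tested). The median log2 fold change was 0.31. All 5 genes past 2-fold belonged to this arm: the transcription factors Ddit3 and Atf3, the glutathione-degrading enzyme Chac1, the kinase Eif2ak2 and the pseudokinase Trib3. The lower genes were 2 of the 4 eIF2 alpha kinases and 3 of the 7 enzymes of amino acid and one-carbon supply. Groups did not overlap for 19 of the 21 (90.5%, against 54.3% of all genes tested).

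Among the transcription factors, Ddit3 and Atf3 changed by about the same amount on the log2(FPKM + 0.1) scale, and by the ratio of mean FPKM it was 3.98 for Ddit3 and 4.16 for Atf3. Ddit3 is the more abundant (ENSMUSG00000025408, chromosome 10, 127290774 to 127296288) and encodes CHOP, a factor linked to death under prolonged stress. It stood at 49.2, 48.2 and 48.2 FPKM in Ad-Con and at 190.1, 206 and 184 FPKM in Ad-PDK4, so that every Ad-PDK4 library was far above every Ad-Con library. The mean rose from 48.5 ± 0.532 to 193 ± 11.4 FPKM (SD, n = 3), by 1.99 on the log2 scale (SE 0.05, limma adjusted p = 1.5e-07). Its exons share 68 bases with the methionyl-tRNA synthetase gene Mars1 on the opposite strand, 3.97% of its exonic length, and whether counting used strand was not stated. Mars1 was at 22.3 to 23.2 and 29.0 to 33.2 FPKM, a log2 fold change of 0.41.

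Atf3 (chromosome 1, 191170296 to 191218039), a stress-induced repressor and activator, was at 1.46, 1.22 and 1.59 FPKM in Ad-Con and 6.48, 5.81 and 5.46 in Ad-PDK4. Every Ad-PDK4 library was above every Ad-Con library. The counts behind these values were small, 64, 46 and 62 reads against 254, 219 and 260, and gave a log2 fold change of 1.99 (95% interval 1.71 to 2.27, limma adjusted p = 1.1e-05). Atf5, which like ATF4 is translated under stress and has been tied to mitochondrial protein folding, was abundant throughout at 103, 92.3 and 102 FPKM in Ad-Con and 118, 127 and 115 in Ad-PDK4. The groups were apart by a narrow gap and the log2 fold change was 0.28 (limma adjusted p = 0.0073).

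Atf4 itself did not pass the test. Its mRNA was at 101, 99.1 and 110.4 FPKM in Ad-Con and 97.2, 90.2 and 98.2 in Ad-PDK4. The groups did not overlap, all Ad-PDK4 libraries lying slightly lower, yet the difference of -0.12 on the log2 scale had a 95% interval that included 0 (-0.26 to 0.02, limma adjusted p = 0.15). The gene that gives the arm its name was thus abundant in both groups, without the rise seen for Atf3 and Ddit3. The protein was not measured in this table.

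**Figure D2:**
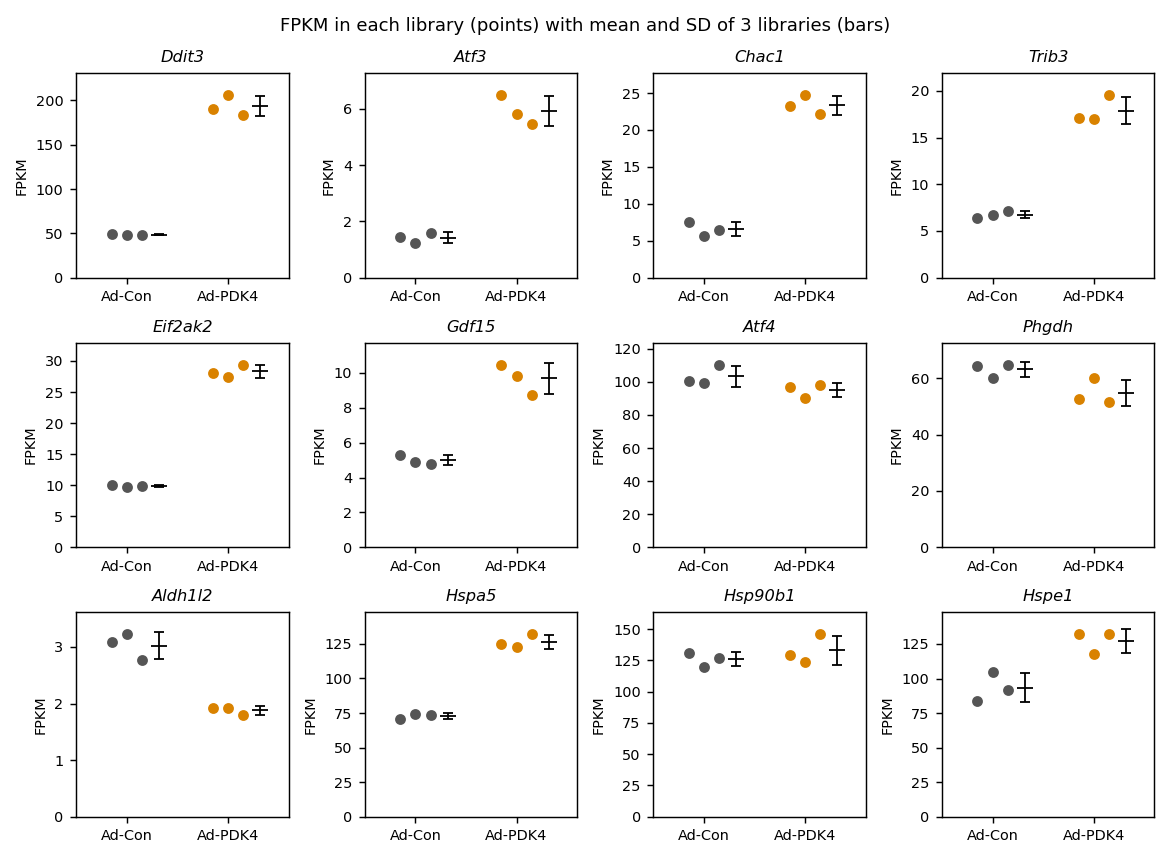
FPKM (linear axis from 0) of 12 of the 42 genes in each Ad-Con (grey) and Ad-PDK4 (orange) library, with the mean and SD of the 3 libraries beside them. Ddit3, Atf3, Chac1, Trib3, Eif2ak2, Gdf15, Hspa5 and Hspe1 were higher in every Ad-PDK4 library, Aldh1l2 and Phgdh lower, Atf4 lower without passing the test, and Hsp90b1 overlapped between groups.

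Of the 4 kinases that phosphorylate eIF2 alpha, only Eif2ak2 was higher. Eif2ak2 (chromosome 17, 78852564 to 78882573) encodes PKR, the sensor of double-stranded RNA, and is also known as an interferon-induced gene. It was at 10.1, 9.77 and 9.85 FPKM in Ad-Con and 28.1, 27.5 and 29.4 in Ad-PDK4, a separation many times the spread of either group. The log2 fold change was 1.51 (SE 0.05, limma adjusted p = 5.5e-07). The interferon-induced check genes rose in the same libraries with a median log2 fold change of 3.82, and their part in the rise of Eif2ak2 was not tested.

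The ER stress kinase PERK, encoded by Eif2ak3, went the other way, with 7.86, 8.16 and 7.67 FPKM in Ad-Con and 5.80, 6.59 and 5.38 in Ad-PDK4 (log2 fold change -0.41, limma adjusted p = 0.0056). Eif2ak4, the amino acid sensor GCN2, was at 6.44, 6.79 and 7.25 against 5.88, 5.61 and 5.97 FPKM (-0.23, limma adjusted p = 0.033). Both groups of each gene stood apart, for Eif2ak4 by a small margin. The haem-regulated kinase HRI (Eif2ak1) overlapped between the groups, at 13.4, 13 and 12 against 13.2, 14.9 and 14.3 FPKM (0.14, 95% interval -0.02 to 0.30, limma adjusted p = 0.14).

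Phosphatase subunits that remove the phosphate from eIF2 alpha were both higher. The stress-induced Ppp1r15a (GADD34) was at 22.2, 23.8 and 24.8 FPKM in Ad-Con and 29.9, 31.3 and 28.8 in Ad-PDK4 (log2 fold change 0.34, limma adjusted p = 0.0028). For the constitutive Ppp1r15b (CReP) the values were 10.1, 9.66 and 10.6 against 12.0, 12.0 and 11.8 FPKM (0.24, limma adjusted p = 0.012). In neither gene did the groups overlap. Ppp1r15b shares 11.4% of its transcript with 1 other gene. Of the kinase genes, Eif2ak1 shares 11.3%, Eif2ak3 10.8% and Eif2ak2 4.06%, each with 1 other gene. In the ER chaperone arm, Hsp90b1 shares 8.47% and Manf 7.39%.

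The 4 remaining effectors downstream of ATF4 and CHOP all rose. Chac1 (chromosome 2, 119351229 to 119354381), whose product cleaves glutathione, was at 7.56, 5.64 and 6.47 FPKM in Ad-Con and 23.2, 24.7 and 22.2 in Ad-PDK4, which is 1.83 on the log2 scale (SE 0.10, limma adjusted p = 8.3e-06). Trib3 (chromosome 2, 152337422 to 152344032), a pseudokinase that restrains AKT and feeds back on ATF4, was at 6.43, 6.67 and 7.14 against 17.1, 17.0 and 19.5 FPKM, a change of 1.39 (SE 0.07, limma adjusted p = 6.2e-06). In both genes the lowest Ad-PDK4 library was more than double the highest Ad-Con library.

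Gdf15 (chromosome 8, 70629393 to 70632456), a secreted cytokine of stressed cells, was at 5.31, 4.89 and 4.77 FPKM in Ad-Con and 10.5, 9.84 and 8.73 in Ad-PDK4, just under 2-fold (log2 fold change 0.94, limma adjusted p = 9.3e-05). Sesn2, which relays leucine and stress signals to mTORC1, rose less, from 15.2, 13.9 and 14.7 FPKM to 19.0, 18.7 and 16.6 (0.31, limma adjusted p = 0.0092). The 4 genes thus shared a direction, with sizes from 0.31 to 1.83 on the log2 scale.

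Enzymes of amino acid and one-carbon supply split, with 3 higher, 3 lower and 1 that did not pass. In the serine pathway, the first and second enzymes were lower and the third higher. Phgdh was at 64.5, 60.1 and 64.9 FPKM in Ad-Con and 52.6, 60.0 and 51.5 in Ad-PDK4, where the highest Ad-PDK4 library nearly met the lowest Ad-Con library (log2 fold change -0.21, limma adjusted p = 0.041). Over 89.5% of its transcript Phgdh matches 11 other genes, 10 of them pseudogenes, at 95% identity or more, so its level is uncertain. Psat1, with 27.7, 27.7 and 27.4 against 24.1, 21.5 and 24.1 FPKM, was lower by a gap wider than its spread (-0.25, limma adjusted p = 0.011). Psph, the last enzyme, was at 2.98, 2.84 and 3.36 against 4.76, 4.61 and 4.51 FPKM (0.58, limma adjusted p = 0.0013), and 8.86% of its transcript is shared with another gene.

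The mitochondrial folate enzymes divided in the same way. Mthfd2, which makes formyl folate in mitochondria, was at 4.35, 3.95 and 4.16 FPKM in Ad-Con and 7.0, 6.85 and 7.22 in Ad-PDK4 (log2 fold change 0.74, limma adjusted p = 1.1e-04). Aldh1l2, which oxidises formyl folate in the same compartment, was at 3.08, 3.23 and 2.76 against 1.92, 1.93 and 1.79 FPKM (-0.66, limma adjusted p = 0.0014), the largest fall of the 42 genes. Its exons share 1056 bases (14.1%) with D10Wsu102e on the opposite strand. Shmt2, which feeds this pathway from serine, overlapped between groups at 22.4 to 24.0 and 23.4 to 23.7 FPKM (0.02, 95% interval -0.10 to 0.13). Asparagine synthetase (Asns), a standard ATF4 target, rose from 16.3, 13.6 and 13.1 to 20.4, 22.6 and 23.8 FPKM (0.64, limma adjusted p = 0.0012).

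**Figure D3:**
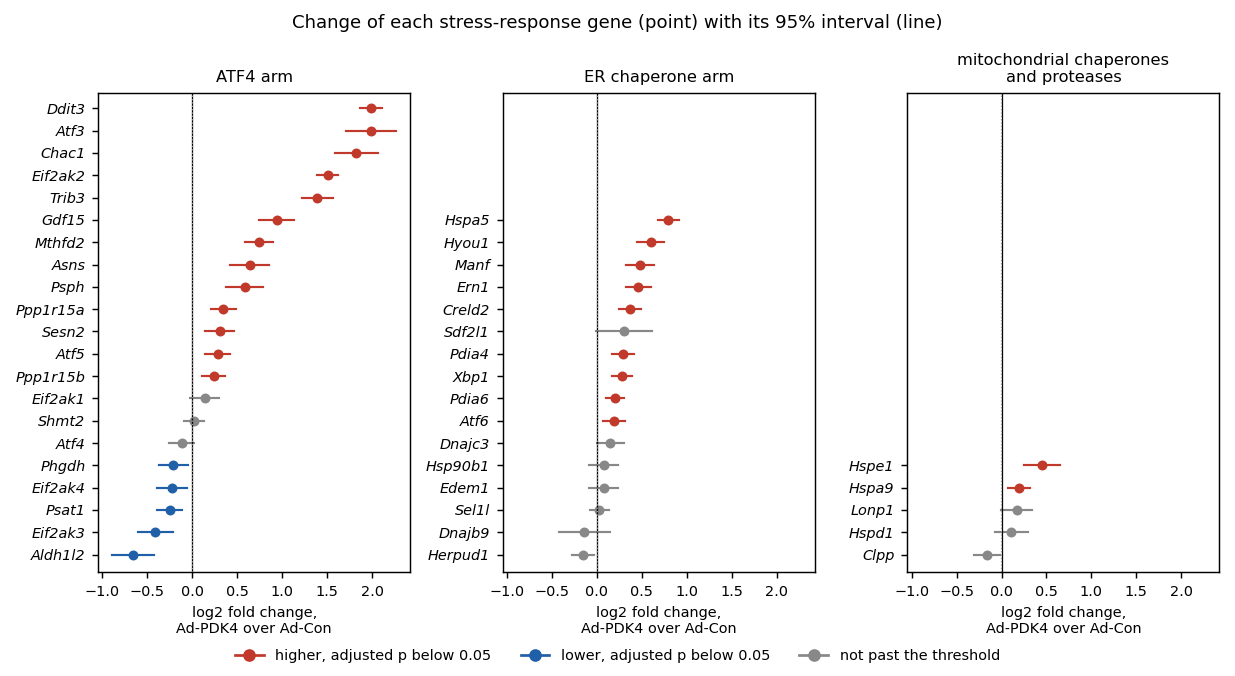
Log2 fold change of Ad-PDK4 over Ad-Con for each of the 42 genes (point) with its 95% interval from limma (line), ordered by size within each arm, red for higher, blue for lower and grey for not past an adjusted p of 0.05; the dotted line is the median of all genes. The ATF4 arm spread from -0.66 (Aldh1l2) to 1.99 (Ddit3), and the ER arm from -0.15 (Herpud1) to 0.80 (Hspa5).

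In the ER chaperone arm, 9 of 16 genes were higher (56.25%, against 21.8% of all genes tested), 0 were lower (against 20.8%) and 7 did not pass. At an unadjusted p under 0.05 in limma, 1 gene, Herpud1, was lower. The median log2 fold change was 0.24 and no gene reached 2-fold. The groups did not overlap for 11 of the 16 (68.75%, against 54.3% of all genes tested). The largest changes were in Hspa5 and Hyou1, whose products work as partners in the ER lumen.

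Hspa5 (ENSMUSG00000026864, chromosome 2, 34771970 to 34777547) encodes BiP, the abundant HSP70 chaperone of the ER that also holds the stress sensors inactive. It was at 70.5, 74.3 and 73.4 FPKM in Ad-Con and 125, 122 and 132 in Ad-PDK4, with a gap of many times the spread. The mean rose from 72.7 ± 2.03 to 126 ± 4.97 FPKM (SD, n = 3), by 0.80 on the log2 scale (SE 0.05, limma adjusted p = 1.3e-05). Hyou1, the nucleotide exchange factor of BiP, was at 14.3, 14.8 and 13.6 against 20.1, 22.6 and 22.1 FPKM (0.60, limma adjusted p = 2.2e-04).

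Secreted ER stress proteins and disulphide isomerases rose by less. Manf, a small ER protein released under stress, was at 14.2, 14.2 and 15.7 FPKM in Ad-Con and 19.3, 20.4 and 21.9 in Ad-PDK4 (0.48). Creld2, another ER stress protein that can be secreted, was at 21.1, 19.8 and 20.1 against 25.3, 26.6 and 26.9 FPKM (0.37). For the isomerase Pdia4 the values were 56.7, 60.9 and 58.9 against 74.8, 68.4 and 72.9 FPKM (0.29), and for Pdia6 they were 42.6, 43.3 and 43.3 against 48.9, 49.7 and 50.0 (0.20). All 4 kept the groups apart, at limma adjusted p of 0.0011, 0.0010, 0.0034 and 0.0065.

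The sensors and their transcription factors were higher too. Ern1, the IRE1 nuclease, was at 16.6, 16.2 and 14.9 FPKM in Ad-Con and 21.7, 22.5 and 21.6 in Ad-PDK4 (log2 fold change 0.46, limma adjusted p = 5.3e-04). Xbp1, the mRNA that IRE1 splices, was at 24.8, 26.1 and 25.1 against 30.1, 30.7 and 31.7 FPKM (0.28, limma adjusted p = 0.0026). Atf6, the membrane-bound factor, was at 11.9, 12.7 and 11.8 against 13.6, 14.1 and 13.8 FPKM (0.19, limma adjusted p = 0.025). With Eif2ak3 lower, the mRNAs of the 3 sensors of ER stress therefore did not share a direction.

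Other chaperones of the arm were not called. The HSP90 of the ER, Hsp90b1, the most abundant of the arm in Ad-Con, was at 131, 119.9 and 127 FPKM there and 129, 124 and 146 in Ad-PDK4, overlapping although the highest Ad-PDK4 library lay above every Ad-Con library (log2 fold change 0.08, 95% interval -0.08 to 0.24). Dnajc3 (P58IPK), a co-chaperone of BiP, was at 27.7, 27.9 and 26.1 against 28.8, 29.1 and 32.7 FPKM, apart but not past the threshold (0.15, limma adjusted p = 0.099). The IRE1 target Dnajb9, another co-chaperone, was at 18.9, 19.0 and 19.0 against 17.8, 14.1 and 20.3 FPKM (-0.14, 95% interval -0.42 to 0.14). Its Ad-PDK4 libraries were far more scattered than those of Ad-Con. Sdf2l1, part of a BiP co-chaperone complex, had the widest spread relative to its mean of the 42 genes, with 19.0, 22.5 and 20.6 against 25.9, 30.4 and 21 FPKM (0.30, limma adjusted p = 0.11).

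None of the 3 genes of ER-associated degradation passed. Herpud1, which organises the degradation complex, was at 30.6, 31.9 and 29.2 FPKM in Ad-Con and 28.2, 27.7 and 26.4 in Ad-PDK4, lower in every library but just short of the threshold (-0.15 on the log2 scale, limma adjusted p = 0.053). Edem1, which delivers misfolded glycoproteins, and Sel1l, the adaptor of the ubiquitin ligase, overlapped between groups, with changes of 0.08 (95% interval -0.08 to 0.24) and 0.03 (95% interval -0.08 to 0.13). Small changes within these intervals are not excluded by 3 libraries a group.

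Set against the promoters shown above, the 5 genes with an ERSE all had a log2 fold change above 0, with different sizes. Hspa5 at 0.80, Creld2 at 0.37 and Pdia6 at 0.20 were higher, whereas Hsp90b1, with an element on each strand, at 0.08 and Dnajc3 at 0.15 did not pass. Of all 16 tested genes with an ERSE in the window, 8 were higher and 0 lower, and without the genes of the list it was 5 and 0 of 11, where 23.4% and 21.9% of the 9400 tested genes with a window were higher and lower. For the CARE, 75 of 241 tested genes were higher and 58 lower (31.1% and 24.1%), although 4 of the 5 carriers in the list rose. The ISRE was carried by 348 tested genes, of which 149 were higher and 50 lower (42.8% and 14.4%). No test was made of these shares.

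In the mitochondrial arm 2 of 5 genes were higher (40%, against 21.8% of all genes tested), 0 lower and 3 not past the threshold (at an unadjusted p under 0.05 in limma, 1 gene, Clpp, was lower). The groups did not overlap for 2 (40%, below the 54.3% of all genes tested). Hspe1 (HSP10), co-chaperonin of HSP60, was at 83.9, 105 and 91.4 FPKM in Ad-Con and 132, 117 and 132 in Ad-PDK4 (log2 fold change 0.45, limma adjusted p = 0.0043). Its partner Hspd1 (HSP60), transcribed from the same region in the opposite direction, was at 103, 98.9 and 105 against 114, 97.4 and 121 FPKM and overlapped (0.11, 95% interval -0.08 to 0.30). These neighbours share 112 exonic bases head to head, and 71.1% of the Hspd1 transcript and 21.6% of that of Hspe1 match other genes, so both levels are uncertain.

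Hspa9, the HSP70 of the matrix and the most abundant of the 42 genes over the 6 libraries, was at 134, 132 and 144 FPKM in Ad-Con and 158, 150.3 and 159.8 in Ad-PDK4 (0.19, limma adjusted p = 0.019). Neither matrix protease passed. Lonp1 was at 41.3, 43.8 and 42.1 against 48.7, 52.0 and 42.6 FPKM (0.17, limma adjusted p = 0.11). Clpp was at 58.2, 66.3 and 60.8 against 53.9, 58.2 and 53.4 FPKM, the only gene of the arm with a lower mean (-0.16, limma adjusted p = 0.074). In the same libraries the protein-coding genes of mitochondrial DNA took 6.13% to 6.53% of summed FPKM in Ad-Con and 2.61% to 3.60% in Ad-PDK4, and the relation of this shift to the arm was not tested.

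Lists of other genes of the pathways, written from general knowledge, were read from the same fit. Of 14 genes for eIF2, its exchange factor eIF2B and their regulators, 7 were higher and 1 lower (50% and 7.14%, against 21.8% and 20.8% of all genes tested). The median log2 fold change was 0.14. The largest rises were in the exchange factor subunit Eif2b3 (0.45) and the GCN2 activator Gcn1 (0.38), and the fall was in Eif2a (-0.27), an initiation factor distinct from eIF2 alpha. These calls were lost for Eif2b3 without Ad-Con replicate 1 (0.41) or Ad-PDK4 replicate 1 (0.44) or 3 (0.43), for Gcn1 without Ad-Con replicate 3 (0.36), and for Eif2a without Ad-Con replicate 3 (-0.25) or Ad-PDK4 replicate 1 (-0.26). With a pseudocount of 1 the change of Eif2b3 was 0.28.

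Of 40 other ATF4 targets, 37 passed the filter, with 23 higher and 7 lower (62.2% and 18.9%, against 21.8% and 20.8% of all genes tested). A large part of the rises came from 1 enzyme family, the tRNA synthetases. Aars, Gars, Nars, Sars, Mars1, Tars, Iars, Eprs, Cars, Yars and Wars were higher, by 0.21 (Sars) to 0.63 (Iars). Lars (0.04) did not pass. The share of higher genes thus does not describe the rest of the list. The median was 0.28. The cationic amino acid transporter Slc7a1 rose most, from 2.50, 2.28 and 1.99 FPKM to 5.45, 5.45 and 5.53 (1.25, limma adjusted p = 4.4e-05), followed by the cysteine-producing enzyme Cth (1.04, limma adjusted p = 0.030), whose reads numbered 25, 13 and 18 against 59, 34 and 42. The mean of Cth was 0.354 FPKM in Ad-Con, under the minimum of the filter, and 0.846 FPKM in Ad-PDK4. Cth thus entered the test, and the count of higher genes, only through its level in Ad-PDK4. The call of Cth was lost without Ad-Con replicate 2 (0.89) or 3 (1.05) and without Ad-PDK4 replicate 2 (1.15) or 3 (1.16). With a pseudocount of 1 its change was 0.44. The largest falls were in the proline enzyme Pycr1 (-0.65, or -0.41 with a pseudocount of 1) and the mTORC1 inhibitor Ddit4 (-0.65). The hormone gene Fgf21 had 0 reads in every Ad-Con library and 4, 3 and 4 in Ad-PDK4, under the filter, and is named after its values were seen. As in the ATF4 arm, rises were the more frequent direction and the share of falls was near that of all genes tested. Some enzymes of amino acid supply were among the genes that fell.

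Among 36 tested genes of the rest of the ER folding, translocation and degradation machinery, 10 were higher and 7 lower (27.8% and 19.4%, near the 21.8% and 20.8% of all genes tested), with a median of 0.06. Edem3, a mannosidase of glycoprotein degradation (0.65), and the ubiquitin ligase Syvn1 (0.42) had the largest rises. The oxidase Ero1lb (-0.85, or -0.50 with a pseudocount of 1) and P4hb, the most abundant disulphide isomerase and a subunit of collagen prolyl hydroxylase (-0.54, limma adjusted p = 6.4e-05), had the largest falls. Ero1lb was scarce, at 1.62 to 1.72 FPKM in Ad-Con. The other oxidase of the list, Ero1l, was higher, at 11.0 to 11.4 FPKM in Ad-Con and 13.4 to 16.3 in Ad-PDK4 (0.37). P4hb was at 435 to 450 FPKM in Ad-Con and 294 to 315 in Ad-PDK4, and the collagen gene Col1a1 at 1007 to 1086 and 404 to 492 FPKM, and the relation of these falls was not tested.

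Of 14 tested partners, proteases and death effectors of the ER sensors, 7 were higher and 2 lower (50% and 14.3%, against 21.8% and 20.8% of all genes tested). The median was 0.23. The ER-associated caspase Casp12 was at 18, 19.2 and 20.2 FPKM in Ad-Con and 37.2, 31.9 and 41.1 in Ad-PDK4 (0.93, limma adjusted p = 1.7e-04), and the ATF6 relative Creb3 rose by 0.68. The BH3-only gene Bcl2l11 (BIM), a known target of CHOP, fell from 6.63, 6.21 and 6.29 to 3.23, 2.77 and 3.45 FPKM (-1.0, limma adjusted p = 1.2e-04), opposite to Ddit3. Of the other death genes of this list besides Casp12, Bbc3 (0.47) and Bak1 (0.36) were higher, and Bax (0.03) and Tnfrsf10b (-0.02) did not pass. Creb3l2 was lower by a smaller amount (-0.21), a call lost without Ad-Con replicate 1 (-0.20) or 2 (-0.18). Among 21 other mitochondrial chaperones, proteases and import factors 6 were higher and 1 lower (28.6% and 4.76%, against 21.8% and 20.8% of all genes tested), with a median of -0.02. Htra2, a protease of the intermembrane space (0.83), and the co-chaperone Dnaja3 (0.49) rose, and Dnajc19 fell by 0.53 on the log2 scale.

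**Figure D4:**
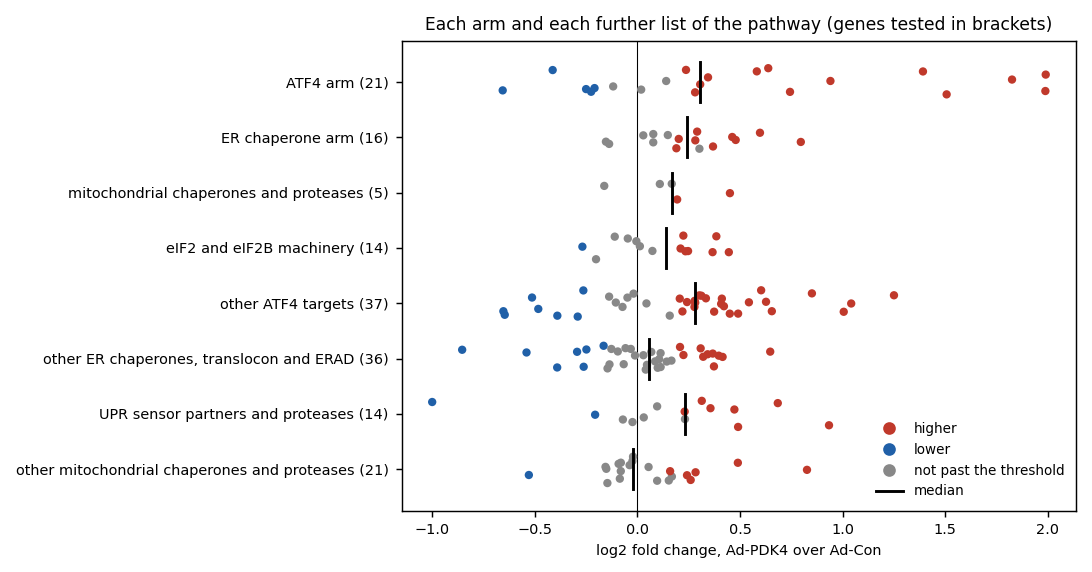
Log2 fold change of Ad-PDK4 over Ad-Con for every tested gene (point) of the 3 arms and of 5 further lists of the pathways, with the median of each list (black bar) and the number of genes tested in brackets; points are spread vertically for legibility. The ATF4 arm and the other ATF4 targets had medians of 0.31 and 0.28, and the remaining mitochondrial genes one of -0.02.

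Most calls did not depend on 1 library. Of the 29 genes called, 25 kept their call under each of 16 other ways of processing in which they were tested, and 0 changed direction. The exceptions were Eif2ak4, Phgdh, Atf6 and Hspa9. Eif2ak4 was not past the threshold without Ad-Con replicate 2 (-0.23) or 3 (-0.18) or Ad-PDK4 replicate 1 (-0.23) or 2 (-0.20). Phgdh was not past it without Ad-Con replicate 1 (-0.19) or 3 (-0.19) or Ad-PDK4 replicate 1 (-0.18) or 3 (-0.17). As a result, 3 rather than 5 genes were lower without Ad-Con replicate 3 or without Ad-PDK4 replicate 1. Atf6 lost its call without Ad-Con replicate 1 (0.18) or 3 (0.17) or Ad-PDK4 replicate 1 (0.20) or 2 (0.18), and Hspa9 without Ad-Con replicate 1 (0.18) or 2 (0.17) or Ad-PDK4 replicate 1 (0.18), which left Hspe1 as the only called gene of the mitochondrial arm. In the other direction, Sdf2l1 (0.44) and Lonp1 (0.25) passed without Ad-PDK4 replicate 3, and Hspd1 (0.20) and Clpp (-0.20) without Ad-PDK4 replicate 2.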

How the data were processed

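RNA-seq of 6 libraries (3 Ad-Con, 3 Ad-PDK4) was analysed from FPKM values per gene, which the authors computed and deposited with 1 column per library and no pooling, together with gene length and coordinates. Groups were taken from the treatment labels and replicate numbers from the titles. The submitters' processing notes name CASAVA 1.8, fastp, HISAT2 2.0.5, featureCounts 1.5.0-p3 and DESeq2 1.20.0, and the study describes paired-end sequencing. The strand setting was not given in the sources used here, and the labels and the methods name different library kits. The notes name GRCm39, but 98.3% of the 54409 identifiers found in GENCODE mouse release 21 (GRCm38), and all 43 rows of the genes studied, had the coordinates of GRCm38, which are printed. Multiplied by gene length, 100% of non-zero FPKM were whole multiples of 1 step per library within 0.01 reads. These are called reads and summed to 17588942 to 21861872 per library, a precision that covers counting error only.

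Genes with a mean of at least 0.5 FPKM were compared on the log2(FPKM + 0.1) scale by limma 3.58.1 under R 4.3.3 (empirical Bayes with trend and robust, all 6 libraries, no covariates), with Benjamini-Hochberg adjustment over 13423 genes. A call is an adjusted p below 0.05, and intervals are at 95%. The script was tested on simulated data. The genes studied and all lists were chosen with earlier results of these data known. Every gene of the 3 arms is named. From each further list the 2 largest rises and 2 largest falls past the threshold are named, and Pdk4 and smooth muscle markers serve as checks. Mars1 and the other tRNA synthetases, D10Wsu102e, Fgf21, Ero1l, Bbc3, Bak1, Bax, Tnfrsf10b and the fibroblast and macrophage markers lie outside this rule. Sequence shared with other genes was found with blastn 2.17.0 on GENCODE transcripts (95% identity, at least 100 bases). Promoter windows are from RefSeq (GRCm38.p6).

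The results were recomputed with a pseudocount of 1 or 0.01, without the filter, with a minimum mean of 5 FPKM, with median-of-ratios, TPM or quantile scaling, with moderation without trend or robust, with a replicate block, with limma-voom on whole reads and without each library in turn. The median-of-ratios factor was 1.00 in every library, since the authors had scaled the libraries to each other, and this rescaling changed nothing.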

Additional observations from a re-analysis of the deposited data

How the results depend on the processing

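No called gene changed direction in any of the 16 alternatives, of which that with a minimum of 5 FPKM left out Atf3, Psph and Aldh1l2. Besides the fits without a library given in the report, Eif2ak4 and Phgdh were not past the threshold with no filter (limma adjusted p = 0.062 and 0.083) and under TPM (0.069 and 0.098), Phgdh without trend or robust (0.085) and Atf6 under quantile scaling (0.10), while Dnajc3 (0.0496), Sdf2l1 (0.047) and Lonp1 (0.041) passed in limma-voom. Of the 13 genes not called, 6 passed in some alternative and 3 changed sign near 0: Shmt2 under quantile scaling (-0.041) and without Ad-Con replicate 2 (-0.0068, where the fits that left out a library ran up to 0.042), Sel1l under quantile scaling (-0.035) and Dnajb9 without Ad-PDK4 replicate 2 (0.0029, where those fits ran down to -0.26). The number of lower genes fell from 5 to 3, in the ATF4 arm likewise to 3, with no filter and under TPM, where more low genes were tested or the scale shifted upward. The median log2 fold change of the 42 genes was 0.24 with a minimum of 5 FPKM, 0.30 under TPM and 0.21 under quantile scaling, and that of the ER chaperone arm 0.28 under TPM and 0.18 under quantile scaling. TPM moved the median of all genes to 0.04 and quantile scaling to -0.04. In the ER chaperone arm 1 gene (Herpud1) was lower with a minimum of 5 FPKM and under quantile scaling, and in the mitochondrial arm 1 gene (Clpp) was lower under quantile scaling.

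Over the fits that left out a library, 22 to 26 genes were higher and 3 to 5 lower, with a median of 0.23 to 0.27. The ATF4 arm had 13 higher in each, 3 to 4 lower and a median of 0.27 to 0.37. The ER chaperone arm had 8 to 10 higher, 0 lower and a median of 0.19 to 0.26. The mitochondrial arm had 1 to 3 higher, 0 to 1 lower and a median of 0.15 to 0.20.

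The replicate numbers did not pair the libraries: deviations of same-numbered libraries from their group means correlated at -0.05, -0.03 and -0.0013. With the replicate block 24 genes were higher and 5 lower, with 1 lower gene (Clpp) in the mitochondrial arm and with Phgdh and Eif2b3 not past the threshold (adjusted p = 0.077 and 0.055 in limma). Depth limits Atf3 most, the only one of the 42 genes with under 100 reads in a library.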
